A study of Homo sapiens with 5 samples.

Results

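Olfactory receptor genes lie in tandem clusters and are read in sensory neurons of the nose, where each neuron uses a single receptor allele and keeps the others in compact heterochromatin. In most other tissues, the colon included, the clusters are generally held to be silent, so they serve as a control for marks of active chromatin. Acetylation of histone H3 at lysine 27 (H3K27ac) marks active promoters and enhancers. KAT7, also called HBO1, is a MYST-family histone acetyltransferase known for acetylating histone H3 and H4 tails and for its part in the licensing of replication origins.

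The summits described here were chosen by position alone, as those falling in 6 hg19 stretches of olfactory receptor genes: chr1:247600000-248900000 (called 1q), chr11:4400000-5200000 (11p), chr11:55000000-56600000 (11q proximal), chr11:123600000-124400000 (11q distal), chr9:107200000-107500000 (9q) and chr14:20100000-20750000 (14q). Together the stretches cover 5.45 Mb. They held 281 of the 209263 summits in 5 lists from chromatin immunoprecipitation and sequencing (ChIP-seq) of the colorectal cancer line HCT116, which is of human origin. The cells had received for 48 h either ENO1-IT1 siRNA, directed at the noncoding transcript of that name, or control siRNA. The lists were H3K27ac after ENO1-IT1 siRNA, H3K27ac after control siRNA, KAT7 after ENO1-IT1 siRNA, KAT7 after control siRNA, and input DNA without antibody, whose siRNA is not labelled. There was 1 library per group, so differences could not be set against a spread between replicates, and p-values were not computed. All intervals are 95% intervals that cover counting error only, and neighbouring summits are not independent.

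Each summit is a position with a score, the authors' -log10 p or q value. Scores depend on sequencing depth and were read only within a list, and the depth of the libraries is unknown. Summits in the stretches numbered 6 of 31839 for H3K27ac after ENO1-IT1 siRNA and 4 of 29429 after control siRNA. For KAT7 they numbered 29 of 24611 after ENO1-IT1 siRNA and 237 of 122439 after control siRNA. Input gave 5 of 945. The lists hold no transcript levels, so neither the silence of the receptor genes nor the knockdown was measured, and groups rest on the sample titles. Peak names begin with KO in all the lists, those titled as control included, so the names give no check of the titles. Were titles exchanged, each direction given between the siRNAs would turn round.

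The genes of these clusters differ from most others in the sequence before their starts, which is shown because H3K27ac is a mark of promoters. The dinucleotide CG, which reads the same on both strands and cannot overlap itself, was counted in the 250 bases before each RefSeq gene start (GRCh38.p14). Whether those annotated starts are where transcription begins was not tested. Of the 281 protein-coding olfactory receptor genes on chromosomes 1, 9, 11 and 14, 222 had such a sequence. Their median was 1 CG, with 0 to 2 as quartiles, and 68.5% held at least 1. The 15527 other protein-coding genes had a median of 18, with 7 to 26 as quartiles, and 97.4% held at least 1. Counts of 10 or more were found at 1 of the 222 receptor genes and at 10863 of the others. The receptor genes were matched by symbol and chromosome and were not placed on hg19, so some lie outside the 6 stretches. As examples, the gene of median count in the OR13 family of chromosome 9 (9 promoters) and in the OR4K group of chromosome 14 (3 promoters) are printed 5′ to 3′ on the gene's strand, with CG in capitals. Each holds 1 CG in 250 bases.
OR13D1: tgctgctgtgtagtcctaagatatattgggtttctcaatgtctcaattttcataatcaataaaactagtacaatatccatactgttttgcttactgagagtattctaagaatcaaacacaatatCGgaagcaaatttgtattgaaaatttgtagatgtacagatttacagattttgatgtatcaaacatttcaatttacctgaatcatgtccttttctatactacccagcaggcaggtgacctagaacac
OR4K2: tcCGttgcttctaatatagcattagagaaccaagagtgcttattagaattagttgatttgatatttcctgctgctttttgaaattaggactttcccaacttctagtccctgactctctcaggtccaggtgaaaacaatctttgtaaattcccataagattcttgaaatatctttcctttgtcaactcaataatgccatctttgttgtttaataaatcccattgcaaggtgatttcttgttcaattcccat

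H3K27ac was nearly absent from the stretches in both conditions. After ENO1-IT1 siRNA it was listed at 1.10 summits per Mb in the stretches (interval 0.404 to 2.40) against 11.2 per Mb in the rest of chromosomes 1 to 22 and X, a density ratio of 0.0986 (0.0362 to 0.215). After control siRNA it was listed at 0.734 per Mb (0.200 to 1.88) against 10.3 per Mb, a ratio of 0.0711 (0.0194 to 0.182). Both intervals lie far below 1. The sequence within 1 Mb of their ends held on average 11.9 H3K27ac summits per Mb after ENO1-IT1 siRNA and 10.96 after control siRNA, and the sides differed. There were 28 summits after ENO1-IT1 siRNA and 21 after control siRNA in the Mb after 11q proximal, against 3 and 2 in the Mb after 11p, 1 and 1 in the Mb before 9q, and 0 and 0 in the Mb before 14q. In 50 kb windows, 6 of 109 stretch windows held a summit after ENO1-IT1 siRNA, against 25.9% of windows genome-wide, and 4 of 109 after control siRNA, against 22.8%. Counting both conditions together, 7 of 109 stretch windows (6.42%, 2.62 to 12.8%) held H3K27ac, against 27% genome-wide.

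**Figure D1:**
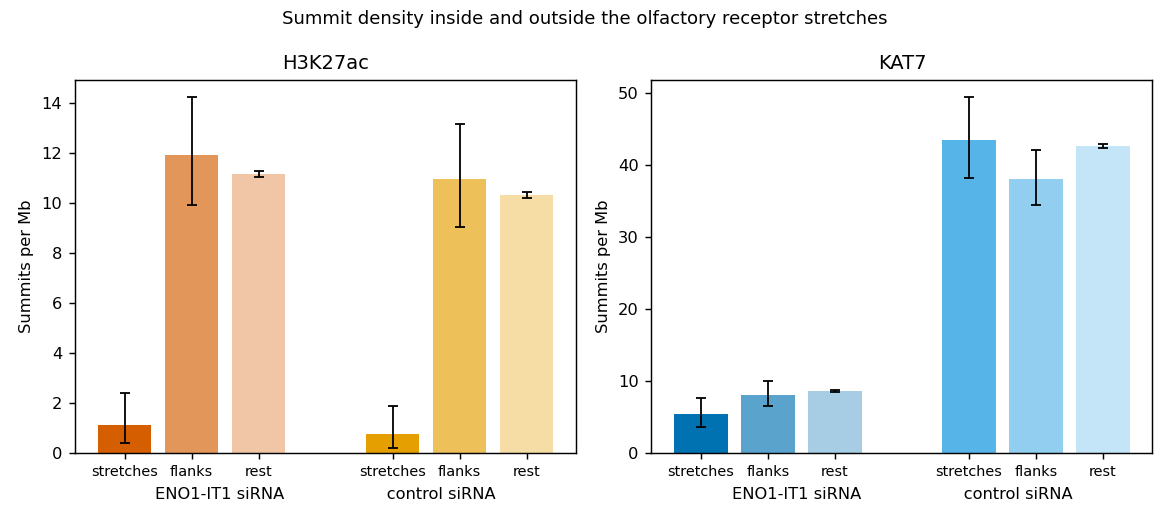
Summits per Mb (bars) with exact Poisson 95% intervals (counting error only) in the stretches, in the sequence within 1 Mb of their ends and in the rest of the genome, for ENO1-IT1 siRNA and control siRNA in each panel. H3K27ac stands at 1.10 and 0.734 per Mb in the stretches, against 11.2 and 10.3 per Mb in the rest, whereas KAT7 after control siRNA stands at 43.5 per Mb, close to the 42.7 per Mb of the rest.

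The 9q, 14q and 11q proximal stretches held no H3K27ac summit in either condition. With 3 counts taken as the limit of a count of 0, these lengths allow up to 10.0, 4.62 and 1.88 summits per Mb. For 9q the exact Poisson interval of a count of 0 reaches 12.3 per Mb, above the 11.2 and 10.3 per Mb of the rest of the genome after ENO1-IT1 siRNA and control siRNA, so a lower density was not detectable there. The 11q proximal stretch lies in a run without the mark that spanned 7282 kb after ENO1-IT1 siRNA and 7379 kb after control siRNA and that also takes in the centromere of chromosome 11. These runs ranked 5 of 31755 and 7 of 29359 intervals between neighbouring H3K27ac summits. The 14q stretch lay in a run of 1788 kb in both conditions, which on one side ends at the first summit of any list on that chromosome. On the other side, the first H3K27ac summit lay 50.5 kb beyond the end after ENO1-IT1 siRNA (score 2.51). After control siRNA it lay 51.0 kb beyond the end (score 2.08). The Mb after the end held 26 H3K27ac summits after ENO1-IT1 siRNA and 28 after control siRNA. At 9q the nearest H3K27ac summit lay 10.1 kb beyond the end after ENO1-IT1 siRNA and 10.0 kb after control siRNA.

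**Figure D2:**
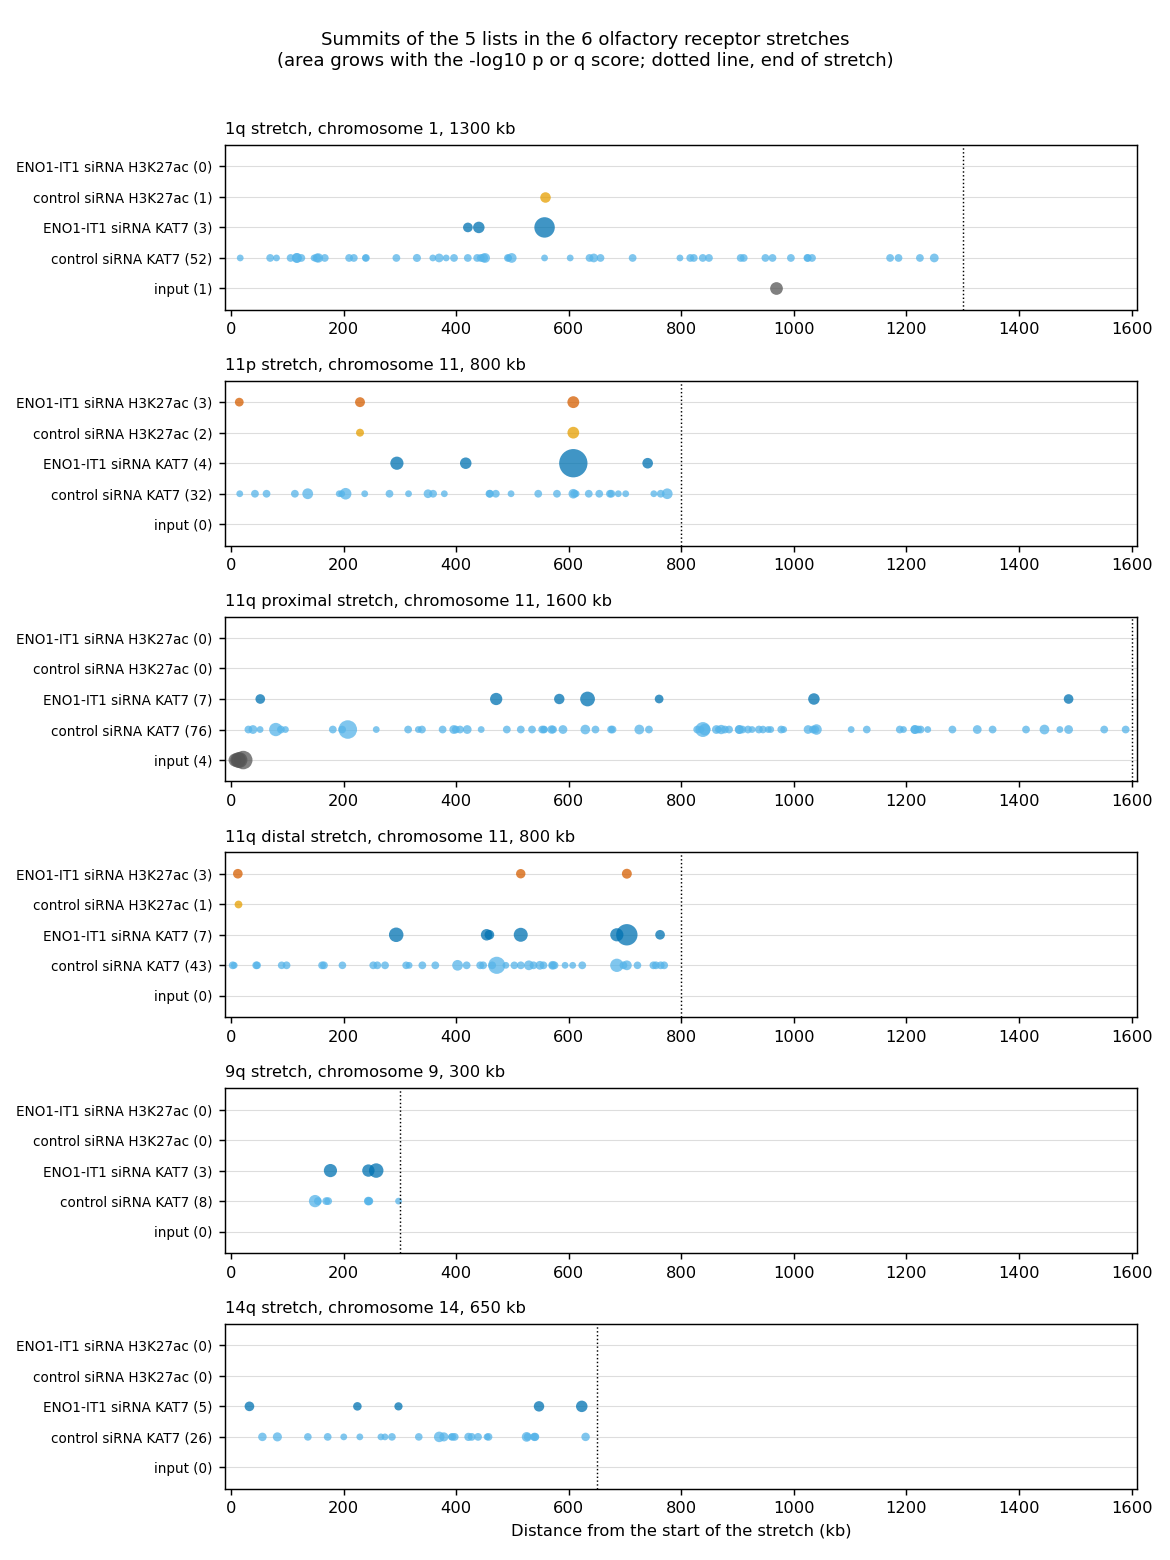
Position of all 281 summits as the distance from the start of each stretch in kb, with 1 row per list and the number of summits in parentheses. Point area grows with the score, and scores are comparable within a row only. Control siRNA KAT7 summits run through each stretch, whereas H3K27ac appears in 3 of the stretches only.

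The H3K27ac summits in the stretches had low or middling scores for their lists. After ENO1-IT1 siRNA the scores ran from 4.25 to 10.4 with a median of 6.03, against a median of 8.01 in the rest of that list. After control siRNA they ran from 2.69 to 10.1 with a median of 5.21, against 7.14 in the rest. No stretch summit scored 20 or more, whereas 17.3% of the remaining summits did after ENO1-IT1 siRNA and 10.1% after control siRNA.

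The H3K27ac summits stood at 7 sites. The highest-scored was in the 11p stretch, at chr11:5008176 after ENO1-IT1 siRNA (score 10.4, above 60.9% of its list) and at chr11:5008175 after control siRNA (score 10.1, above 69.2%). A second 11p site was listed at 4629214 after ENO1-IT1 siRNA (score 6.29) and at 4629216 after control siRNA (score 2.93). The 11q distal stretch had a site at 123612193 after ENO1-IT1 siRNA (score 5.76) and 76 bp away at 123612269 after control siRNA (score 2.69). These 3 sites were thus listed under both siRNAs.

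Sites listed under 1 siRNA likewise had low or middling scores. After ENO1-IT1 siRNA only, H3K27ac was listed at 4414732 in the 11p stretch (score 4.25) and at 124114772 and 124303280 in the 11q distal stretch (scores 5.36 and 6.33). After control siRNA only, it was listed at 248157069 in the 1q stretch (score 7.49, above 52.6% of its list). So 3 of 6 summits after ENO1-IT1 siRNA had a control summit within 500 bp, against 64.3% of the whole list, and 3 of 4 after control siRNA had an ENO1-IT1 siRNA summit, against 71.9%. The intervals of these shares, 11.8 to 88.2% and 19.4 to 99.4%, include the values of the whole lists. The ratio of 6 to 4 summits, 1.50 (0.356 to 7.23), likewise includes the ratio of 1.08 outside the stretches.

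The clusters also hold genes that are not olfactory receptors. In the gene order of RefSeq, TRIM21, an antibody receptor and ubiquitin ligase of the cytosol, stands between OR52B4 and OR52K2, and TRIM68, another ubiquitin ligase, between OR52I1 and OR51D1. MMP26, a matrix metalloproteinase, stands between OR51C1 and OR51F1, and TRIM58, a ubiquitin ligase of red cell precursors, between OR11L1 and OR2W3. ZNF202, a zinc finger transcription factor, stands between SCN3B and OR6X1. General knowledge of the hg19 map places TRIM21 and TRIM68 in the 11p stretch, ZNF202 at the start of the 11q distal stretch and TRIM58 in the 1q stretch. MMP26 was not placed. No hg19 annotation was used, and no summit was assigned to a gene, so whether any summit lies at one of these genes was not tested. The sites at 4414732 and 123612193 lay 14.7 and 12.2 kb from an end of their stretch, and the others at least 96.7 kb inside.

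With all scores counted, KAT7 after control siRNA was listed in the stretches as densely as elsewhere. The density was 43.5 summits per Mb in the stretches (38.1 to 49.4) against 42.7 per Mb in the rest of the genome, a ratio of 1.02 (0.893 to 1.16), and 38.1 per Mb within 1 Mb of their ends. With scores of at least 3 the ratio to the rest was 0.836 (0.63 to 1.09), an interval that reaches 1. At least 1 summit of any score was found in 93 of 109 stretch windows, 85.3% (77.3 to 91.4%), against 85.8% genome-wide. The 5 larger stretches held 40.0 to 53.8 per Mb and 9q 26.7 per Mb (11.5 to 52.5). Neighbouring summits were a median of 14.9 kb apart in the stretches, against 15.4 kb over the genome. They were thus spread through the clusters at the usual spacing of this list.

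KAT7 after ENO1-IT1 siRNA was listed at a lower density in the stretches than elsewhere, though not at every setting with an interval below 1. The density was 5.32 summits per Mb in the stretches (3.56 to 7.64) against 8.56 per Mb in the rest, a ratio of 0.621 (0.416 to 0.893). Without the 1q stretch the ratio was 0.732 (0.478 to 1.07) and without 11q proximal 0.668 (0.418 to 1.01). With scores of at least 10 it was 0.688 (0.355 to 1.20), and with scores of at least 20 it was 0.382 (0.0788 to 1.12). These 4 intervals reach 1. Summits were found in 27 of 109 stretch windows, 24.8% (17.0 to 34.0%), against 32.6% genome-wide, an interval that includes the genome value. Against the sequence within 1 Mb of the ends, at 8.08 per Mb, the density ratio was 0.659 with an interval of 0.416 to 1.02, which reaches 1. The median spacing was 117 kb in the stretches and 67.7 kb over the genome.

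With whole lists, of 24611 and 122439 summits, fewer KAT7 summits were listed after ENO1-IT1 siRNA than after control siRNA in each of the 6 stretches. The counts were 3 after ENO1-IT1 siRNA against 52 after control siRNA in 1q, 4 against 32 in 11p, 7 against 76 in 11q proximal, 7 against 43 in 11q distal, 3 against 8 in 9q and 5 against 26 in 14q. With the control siRNA list reduced to its highest-scored summits at equal length, the direction was not common to the stretches. The counts were then 3 after ENO1-IT1 siRNA against 10 after control siRNA in 1q, 4 against 4 in 11p, 7 against 19 in 11q proximal, 7 against 7 in 11q distal, 3 against 1 in 9q and 5 against 4 in 14q. The cut fell among control siRNA summits tied at a score of 4.28, which were kept in order of chromosome name. Tied summits in 1q, 11q proximal and 11q distal were kept, and the one at chr9:107444116 in 9q was left out. These control siRNA counts thus depend in part on that order. With whole lists, the ratio over all stretches was 0.122 (0.0802 to 0.180) in the stretches, below the 0.201 of the rest of the genome and the 0.212 of the flanking sequence. The lowest ratio was 0.0577 (0.0115 to 0.178) in 1q and the highest 0.375 (0.0641 to 1.56) in 9q, with intervals that overlap.

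Other chromatin without H3K27ac also had a low ratio. Among stretch windows without H3K27ac it was 0.115 (0.0729 to 0.175). Among the 41505 other windows of the genome without H3K27ac it was 0.159, and among the 13222 whose middle lay 250 kb or more from any H3K27ac summit it was 0.138. It was 0.313 in windows with 1 or 2 H3K27ac summits and 0.289 in those with 3 or more. The stretch interval includes the values of the windows without H3K27ac and not those with it. After ENO1-IT1 siRNA, KAT7 stood at 4.90 summits per Mb (3.17 to 7.24) in the stretch windows without H3K27ac, 6.57 in other windows without it, 6.02 in those far from it, and 14.6 and 13.3 in windows with it. After control siRNA the same classes stood at 42.5 (37.1 to 48.6), 41.3, 43.7, 46.7 and 46.0 per Mb. Over all scores, KAT7 after ENO1-IT1 siRNA was thus denser in windows with H3K27ac, whereas the control siRNA list differed little across the classes. The classes were not recomputed at a score minimum or at equal list length. In the whole control siRNA KAT7 list, H3K27ac of either siRNA lay within 500 bp of 4.27% of summits scoring under 10. It lay near 16.4% of those scoring 10 to under 20 and 38.6% of those scoring 20 or more.

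**Figure D3:**
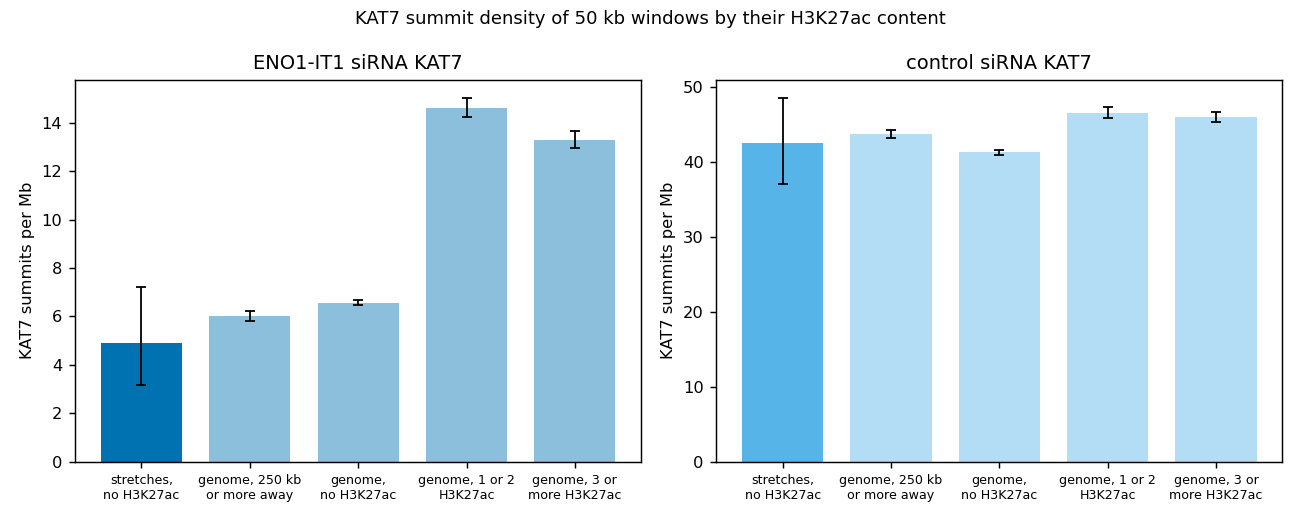
KAT7 summits of all scores per Mb in 50 kb windows (bars) with exact Poisson 95% intervals (counting error only), after ENO1-IT1 siRNA on the left and control siRNA on the right. The stretch windows without H3K27ac, at 4.90 and 42.5 per Mb, are shown beside genome windows sorted by their H3K27ac summits of both conditions; the left panel rises to 14.6 per Mb where H3K27ac was listed and the right one stays between 41.3 and 46.7.

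Most control siRNA KAT7 summits in the stretches carried 1 of the 2 most frequent scores there. Of the 237, 117 had a score of 2.68 and 50 a score of 1.31, together 70.5%, against 64.1% in the rest of the list. The score of 1.31 lies close to 1.301, the -log10 of 0.05. Scores of at least 3 were found at 23.2% (18.0 to 29.1%) against 28.3% in the rest, and scores of at least 10 at 2.53% (0.935 to 5.43%) against 2.75%. After ENO1-IT1 siRNA the median score was 9.58 against 7.67 in the rest of that list, and 12 of 29 summits, 41.4% (23.5 to 61.1%), scored at least 10, against 37.4%. Here too the scores were repeated, with 5 summits each at 5.83 and 9.58.

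The KAT7 ratio depended on which scores were counted, and the scale is not common to the lists. With scores of at least 3, the stretches held 29 summits after ENO1-IT1 siRNA and 55 after control siRNA, a ratio of 0.527 (0.324 to 0.841) against 0.675 outside. With scores of at least 10 there were 12 and 6, a ratio of 2 (0.695 to 6.50) against 2.73 outside. With both lists at equal length there were 29 and 45, a ratio of 0.644 (0.390 to 1.05) against 0.996 outside. The 45 depend in part on the order in which tied control siRNA summits were kept. Among tied summits in the stretches, that order left out only the one at chr9:107444116. It thus tends to raise the 45 and to lower the ratio in the stretches. At each setting the stretches had the lower ratio, and only with all summits counted did the interval leave out the value outside.

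**Figure D4:**
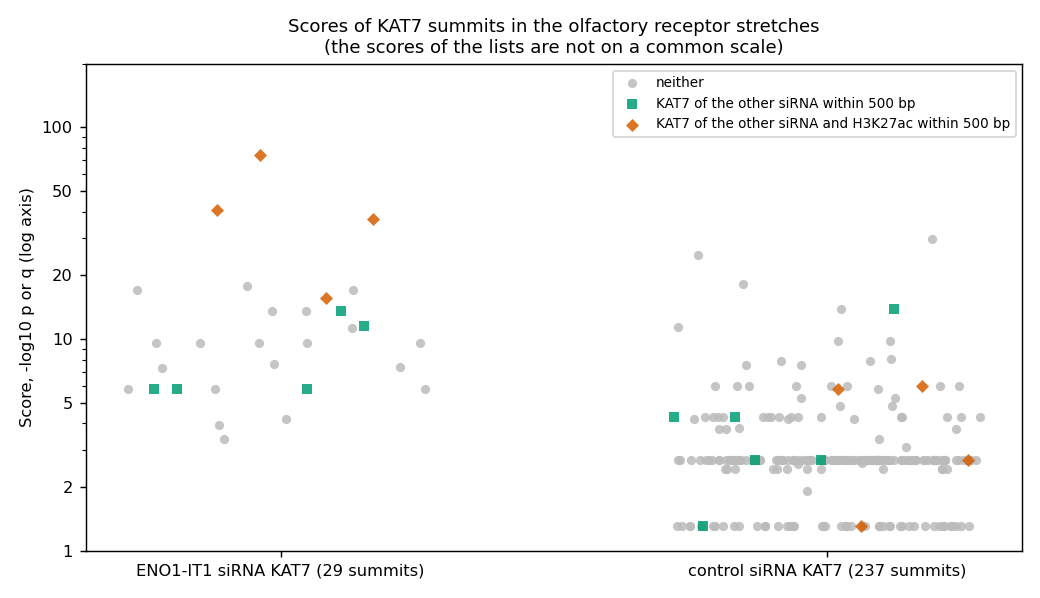
Score of each KAT7 summit in the stretches on a log axis, for 29 summits after ENO1-IT1 siRNA and 237 after control siRNA, spread sideways for visibility. Marks show a KAT7 summit of the other siRNA, and an H3K27ac summit of either siRNA, within 500 bp. The 3 highest points after ENO1-IT1 siRNA, from 37.0 to 73.8, have both, and the 3 highest after control siRNA, from 18.3 to 29.8, have neither.

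The 3 highest-scored KAT7 summits after ENO1-IT1 siRNA in the stretches coincided with H3K27ac of either siRNA. The highest was at chr11:5008170 in the 11p stretch (score 73.8, rank 557 of 24611), 12 bp from a control siRNA KAT7 summit at 5008182 with a score of 5.80. H3K27ac lay 6 bp away after ENO1-IT1 siRNA and 5 bp away after control siRNA, so this is the only stretch position listed in all 4 immunoprecipitated lists. The next was at chr11:124303229 in the 11q distal stretch (score 40.7), 82 bp from a control siRNA KAT7 summit of score 6.02 and 51 bp from H3K27ac after ENO1-IT1 siRNA. The third was at chr1:248157088 in the 1q stretch (score 37.0), 13 bp from a control siRNA KAT7 summit at the lowest frequent score, 1.31. It lay 19 bp from H3K27ac after control siRNA, and the nearest H3K27ac summit after ENO1-IT1 siRNA was 630571 bp away.

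Another KAT7 position with H3K27ac was at chr11:124114760 (score 15.7), 12 bp from H3K27ac after ENO1-IT1 siRNA and 110 bp from a control siRNA KAT7 summit of score 2.68. At all 4 of these positions KAT7 was therefore listed under both siRNAs. At 3 of them H3K27ac was listed under 1 siRNA only, namely ENO1-IT1 siRNA at both 11q distal positions and control siRNA at the 1q position. The remaining summits among the 5 highest after ENO1-IT1 siRNA were at chr11:55633455 (score 17.8) and, tied at 17.0, at chr11:123893523 and chr9:107458010. Among these, the closest control siRNA KAT7 summit was 4012 bp away and the closest H3K27ac summit 52041 bp away.

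After ENO1-IT1 siRNA, most KAT7 summits scoring 20 or more lay near H3K27ac over the whole list as well. All 3 stretch summits scoring 20 or more after ENO1-IT1 siRNA had H3K27ac of either siRNA within 500 bp (29.2 to 100%). In the whole list 61.3% of such summits had it, a value inside the interval. Of the 9 stretch summits scoring 10 to under 20, 1 had it, against 17.2%. None of the 17 scoring under 10 had it (0 to 19.5%), against 13.2% in the whole list, a value inside the interval. Over all scores, 4 of 29 (13.8%, 3.89 to 31.7%) had H3K27ac of either siRNA, against 22.1% of the list, and 3 of 29 had H3K27ac of the same siRNA, against 19%. After control siRNA 4 of 237 (1.69%, 0.462 to 4.26%) had H3K27ac of either siRNA, against 4.74%, and 2 of 237 had that of the same siRNA, against 3.67%. Among H3K27ac summits, 3 of 6 after ENO1-IT1 siRNA had KAT7 of the same siRNA (11.8 to 88.2%), against 14.3% of that list. After control siRNA 2 of 4 had it (6.76 to 93.2%), against 14.8%. The intervals of these H3K27ac shares include the values of the whole lists.

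The 3 highest-scored control siRNA KAT7 summits in the stretches had neither H3K27ac nor KAT7 of the other siRNA within 500 bp. They were at chr11:55207496 (score 29.8, rank 232 of 122439), chr11:124072124 (score 25.1) and chr11:55838361 (score 18.3). Their nearest KAT7 summits after ENO1-IT1 siRNA were 155460, 13057 and 77746 bp away. The next, tied at 13.9, were at chr11:55079599, with the nearest KAT7 summit after ENO1-IT1 siRNA 27563 bp away, and at chr11:124285488, where one was listed 11 bp away with a score of 13.6. Of the 6 control siRNA summits scoring 10 or more, this last one alone was listed again, 16.7% (0.421 to 64.1%), against 25.2% of such summits in the whole list. None of the 6 had H3K27ac of either siRNA. In the whole list H3K27ac of either siRNA lay near 38.6% of control siRNA KAT7 summits scoring 20 or more and 16.4% of those scoring 10 to under 20, and a KAT7 counterpart near 43.3% and 20%. Most such summits of the whole list thus lacked them too.

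KAT7 was listed under both siRNAs at 9 positions of the ENO1-IT1 siRNA list, 4 with H3K27ac and 5 without. This is 31.0% (15.3 to 50.8%) of its 29 summits, against 32.2% of the whole list. Besides the 4 positions above and that at 124285477, these were chr9:107444116 (score 11.6), at the very base of a control siRNA summit with a score of 4.28, and chr11:56488038 (score 5.79), 1 bp from a control siRNA summit of the same 4.28. The others were chr1:248020842 and chr11:55052036, both with a score of 5.83, which lay 140 and 334 bp from control siRNA summits at 2.68 and 1.31. From the other side, 10 of 237 control siRNA summits (4.22%, 2.04 to 7.62%) had a KAT7 summit after ENO1-IT1 siRNA, against 6.62% of the list, and 227 had none. Both intervals include the values of the whole lists.

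Input DNA gave 5 summits in the stretches, 0.917 per Mb (0.298 to 2.14) against 0.301 per Mb in the rest of the genome, and 2 of 109 windows held one, against 0.574% genome-wide. Of these, 4 stood close together at the start of the 11q proximal stretch, on the side of the centromere, at 55007345, 55012612, 55015204 and 55021782 with scores of 13.3 to 29.6. The fifth was at chr1:248567522 with a score of 12.4. None of the 276 immunoprecipitated summits in the stretches lay within 1000 bp of an input summit, the closest being 5491 bp away. The same share of the whole lists was not computed. With only 5 input summits, little of the stretches lies that close to input, so the count cannot show whether calls are free of input signal.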

How the data were processed

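The 5 deposited lists were used as given. Per the submitters' processing notes, Bowtie was the aligner, hg19 the build and MACS2 the peak caller. Their versions, their options and any calling control were not given in the sources used here. Peak names carry a tag for duplicate removal, per the deposited files, and each list belongs to 1 sample. The deposited score is a -log10 p or q value, as the authors' peak caller wrote it, and which of these was not stated.

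Positions are hg19, counted from 1 (bed column 3). The tools were SciPy 1.17.1 for intervals, pandas 2.3.3 and numpy 2.4.6 for tables, matplotlib 3.10.9 for figures, and Python 3.11.15. Density outside the stretches used 2844 Mb of chromosomes 1 to 22 and X, up to each last summit and without runs of 500 kb or more that lack any summit. Windows were 50 kb. Summits at most 500 bp apart counted as shared. Intervals are exact: Poisson for densities, conditional binomial for ratios, Clopper-Pearson for shares. Overlap counting was checked on simulated positions.

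Named positions are, by rule, all H3K27ac and input summits, the 5 highest-scored KAT7 summits of each list, and all KAT7 positions shared between siRNAs or with H3K27ac. The stretches, members and comparisons were chosen with earlier results of these data known. Gene names and promoters came from RefSeq GRCh38.p14, whose coordinates served for gene order only. Alternatives were other distances, score minimums, windows, trimmed or omitted stretches, equal list lengths, merged summits and removal of summits near input. The length with empty runs kept, H3K27ac of either siRNA, windows far from H3K27ac and counts per stretch at equal list length were added after seeing the data.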

Additional observations from a re-analysis of the deposited data

How the results depend on the processing

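Of 211 alternative values for 20 results, 174 lay inside the interval of the reported value. No density ratio left its interval when a stretch was omitted or trimmed, when summits were merged or removed near input, or with equal list lengths. The interval of the ENO1-IT1 siRNA KAT7 ratio nevertheless reached 1 without 1q, without 11q proximal, and at score minimums of 10 and 20.

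Each score minimum was set on both lists compared, so a summit counted as listed again only where its partner passed too. Shares of the whole lists, and of windows genome-wide, were not computed under such minimums or at equal list length. With no minimum on the partner, 6 of 12 ENO1-IT1 siRNA KAT7 summits scoring at least 10 (50%, 21.1 to 78.9%) were listed again, against 48.2% in the whole list. All 3 scoring at least 20 had both control siRNA KAT7 and H3K27ac of either siRNA. In the whole list 68.5% of such summits had the KAT7 and 61.3% the H3K27ac. At a score of at least 3, the control siRNA KAT7 density ratio was 0.836 (0.63 to 1.09) and the ENO1-IT1 siRNA to control siRNA KAT7 ratio 0.527. The share of control siRNA KAT7 listed again was then 9.09% (3.02 to 19.95%) and its windows 38.5%. At 10, the KAT7 ratio was 2 (0.695 to 6.50), against 2.73 outside. The H3K27ac shares listed again were 100%, but of only 1 summit in each list (2.5 to 100%). They were 8.33% (0.211 to 38.5%) for ENO1-IT1 siRNA KAT7 and 16.7% (0.421 to 64.1%) for control siRNA KAT7. The control siRNA KAT7 share with H3K27ac was 0% (0 to 45.9%). Windows were then 0.917% for each H3K27ac list, 11.01% for ENO1-IT1 siRNA KAT7 and 5.50% for control siRNA KAT7. At 20, density ratios were 0 for each H3K27ac list, 0.382 for ENO1-IT1 siRNA KAT7 and 1.405 (0.170 to 5.09) for control siRNA KAT7. The KAT7 ratio was 1.50 (0.172 to 17.96), from 3 and 2 summits, against 5.515 outside the stretches. No KAT7 summit had a KAT7 or H3K27ac partner that also scored at least 20. These shares of 0% had intervals of 0 to 70.8% for ENO1-IT1 siRNA KAT7 and 0 to 84.2% for control siRNA KAT7. Windows were 0% for each H3K27ac list, 2.75% for ENO1-IT1 siRNA KAT7 and 1.83% for control siRNA KAT7. A minimum leaves fewer summits by construction.

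With lists of equal length, where control siRNA KAT7 ties at the cut were kept by chromosome name, the KAT7 ratio was 0.644. Shares listed again were then 13.8% (3.89 to 31.7%) for ENO1-IT1 siRNA KAT7 and 8.89% (2.5 to 21.2%) for control siRNA KAT7, and control siRNA KAT7 windows 33.9%. Windows of 25 kb gave 12.8% and 63.8%, and windows of 100 kb 42.6% and 98.1%, for ENO1-IT1 siRNA and control siRNA KAT7. Genome-wide shares at these window sizes were not computed, and larger windows hold a summit more often by construction. Without the 1q stretch, control siRNA H3K27ac was listed again at 100% of 3 summits. Depth is unknown, and counts of 4 and 6 H3K27ac summits limit what can be read between siRNAs. No paired analysis was possible because each group holds 1 library and no result comes from a test.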
